A study of Mus musculus with 24 samples.

Results

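Microtubules are hollow polymers of alpha and beta tubulin that give cells their shape and serve as tracks for transport. The 10 genes described here encode an alpha tubulin (Tuba1a), 3 beta tubulins (Tubb2b, Tubb3 and Tubb4a), the tubulin polymerization promoting protein Tppp, the stathmins Stmn1, Stmn2 and Stmn4, and the microtubule-associated proteins Mapt and Map1b. They were taken as a list of symbols, 10 of the 55359 gene rows in the count matrix, with Tppp and Tubb4a entered as genes of oligodendrocytes and Stmn2 and Tubb3 as genes of neurons. The list was chosen from earlier results on these same wells and names no threshold or contrast. The values of the 10 genes are therefore given as a description, with fold changes and standard errors and without p-values. Other microtubule genes and cell type markers were tested.

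The cells were oligodendrocytes, the myelin-forming cells of the brain, from the cortices of C57Bl6J pups aged 5 to 7 days. They were sorted with magnetic beads against O4, a surface antigen of immature oligodendrocytes, treated for 3 days with triiodothyronine to make them differentiate, and held for another 3 days with or without ethanol. Experiment 1, given in the labels as batch 1, had 6 control wells (0 mM) and 6 wells at 30 mM. Experiment 2, given as batch 2, had 6 control wells and 6 wells at 10 mM. Control plates stood in a separate incubator. Ethanol therefore cannot be told apart from the incubator, nor the dose from the experiment. The labels call the wells biological replicates without saying that they came from separate cultures or animals, so the tests measure the spread between these wells.

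In oligodendrocytes, microtubules fill the processes that reach and wrap axons and carry myelin mRNAs outward. Tppp nucleates microtubules at Golgi outposts in these processes, and mutations of TUBB4A, a beta tubulin abundant in myelinating cells, cause a hypomyelinating leukodystrophy. Stathmins bind free tubulin dimers and favour disassembly. Tau (Mapt) and Map1b bind along the polymer. Tubb3 and Stmn2 are widely used as markers of neurons.

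Promoter windows of 250 bases upstream of the start site were found for 5 of the 10 genes (Tppp, Tubb4a, Tuba1a, Tubb3 and Map1b) in a table taken from RefSeq on GRCm38.p6. The windows of Tppp, Tubb4a and Tubb3 are shown because the list sets Tppp and Tubb4a against Tubb3 and Stmn2. They are written 5′ to 3′ on the strand of the gene, in lower case, with matches to the motifs searched in capitals. The Tppp window lies at chr13:74009169-74009418 (plus strand), that of Tubb4a at chr17:57087601-57087850 (minus strand) and that of Tubb3 at chr8:123411303-123411552 (plus strand).
Tppp: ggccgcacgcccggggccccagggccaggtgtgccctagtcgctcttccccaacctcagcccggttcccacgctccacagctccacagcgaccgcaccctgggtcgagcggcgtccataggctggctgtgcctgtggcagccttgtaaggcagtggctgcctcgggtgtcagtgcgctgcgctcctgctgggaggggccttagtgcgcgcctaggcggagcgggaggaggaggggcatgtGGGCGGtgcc
Tubb4a: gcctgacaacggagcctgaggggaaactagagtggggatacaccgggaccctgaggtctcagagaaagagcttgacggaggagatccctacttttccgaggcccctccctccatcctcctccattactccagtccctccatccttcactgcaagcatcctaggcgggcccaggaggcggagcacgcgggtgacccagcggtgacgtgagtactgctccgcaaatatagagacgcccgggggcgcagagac
Tubb3: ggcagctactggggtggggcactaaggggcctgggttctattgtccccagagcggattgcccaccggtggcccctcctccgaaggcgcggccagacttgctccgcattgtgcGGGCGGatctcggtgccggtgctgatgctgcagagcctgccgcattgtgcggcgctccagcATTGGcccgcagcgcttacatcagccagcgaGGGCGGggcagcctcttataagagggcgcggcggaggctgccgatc
The motifs were searched on both strands. They were the GC box (GGGCGG), the CCAAT box (CCAAT), the TATA box (TATAAA), a core bound by SOX factors (ACAAAG) and an E-box (CAGCTG). Tppp held 1 GC box, Tubb3 held 2 GC boxes and 1 CCAAT box, and Tubb4a held none of the 5 motifs. Tuba1a held 1 GC box and 1 CCAAT box, and Map1b held 1 GC box and 1 TATA box. Of 32851 windows of this length, 32.7% held the GC box, 33.9% the CCAAT box, 12.4% the TATA box, 16.5% the SOX core and 13% the E-box. The GC content was 71.6% for Tppp, 68.0% for Tubb3 and 61.6% for Tubb4a, beside a median of 52.4% over the 32851 windows. No match overlapped another in these windows. A match is a description of the letters, not of a bound site.

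The libraries held 1184609 to 1817028 counts per well, so 3 counts corresponded to 1.65 to 2.53 CPM (counts relative to the library total, scaled by TMM factors). The lowest count of any of the 10 genes in any well was 44, for Stmn2, and all 10 passed the filter on low counts in every comparison. Counts come from tags near the 3′ end and do not grow with transcript length, so levels are set side by side on the CPM scale. Markers of mature oligodendrocytes were abundant: the summed CPM of 12 such genes lay between 6931 and 16600 in the 24 wells. Astrocyte markers were present too, with sums of 3969 to 6904 CPM for 10 genes. The highest oligodendrocyte sum belonged to replicate 1 at 30 mM. Its sum of 16600 stood apart from 9686 to 10170 in the other 5 wells of its group. That well was also the farthest from its group for several of the 10 genes, and results that rest on it are given with and without it. Fewer cells of a type and less RNA per cell cannot be told apart in such bulk libraries.

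At 30 mM, Tppp, Tubb4a, Stmn4 and Mapt were higher than in the control wells, by 50.3%, 24.4%, 33.5% and 27.9%, and Stmn2, Tubb2b and Map1b were lower, at 0.611, 0.828 and 0.851 of the control level. These 7 of 10 were past the threshold of edgeR's quasi-likelihood test (adjusted p of 0.05), in a table where 9.67% of 13235 genes were. The 4 higher members stand beside 3.02% of all genes called higher and the 3 lower ones beside 6.65% called lower. The median log2 fold change of the 10 genes was 0.10, beside 0.02 over all genes tested. Without replicate 1 at 30 mM, 5 members passed, 2 of them higher, beside 11.5% of 13551 genes.

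At 10 mM, Tppp, Stmn4, Mapt and Tubb3 were higher, by 44.9%, 33.0%, 19.4% and 18.4%, and Stmn2 was lower, at 0.757 of the control level. These 5 of 10 passed the same threshold, in a table where 0.657% of 13538 genes did. The 4 higher members stand beside 0.391% of all genes called higher and the 1 lower member beside 0.266% called lower. The median log2 fold change was 0.18, beside -0.0023 over all genes tested. Since the list was chosen with these results known, nothing is read from the counts. A joint fit of all 24 wells left 1 member past the threshold at 10 mM, Tppp, and DESeq2 left 3. With each of the 12 wells left out in turn, 1 to 5 members passed at 10 mM; the fewest passed without control replicate 5, and 2 or 3 passed without 10 mM replicates 2 or 4 or control replicates 1 or 6.

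**Figure D1:**
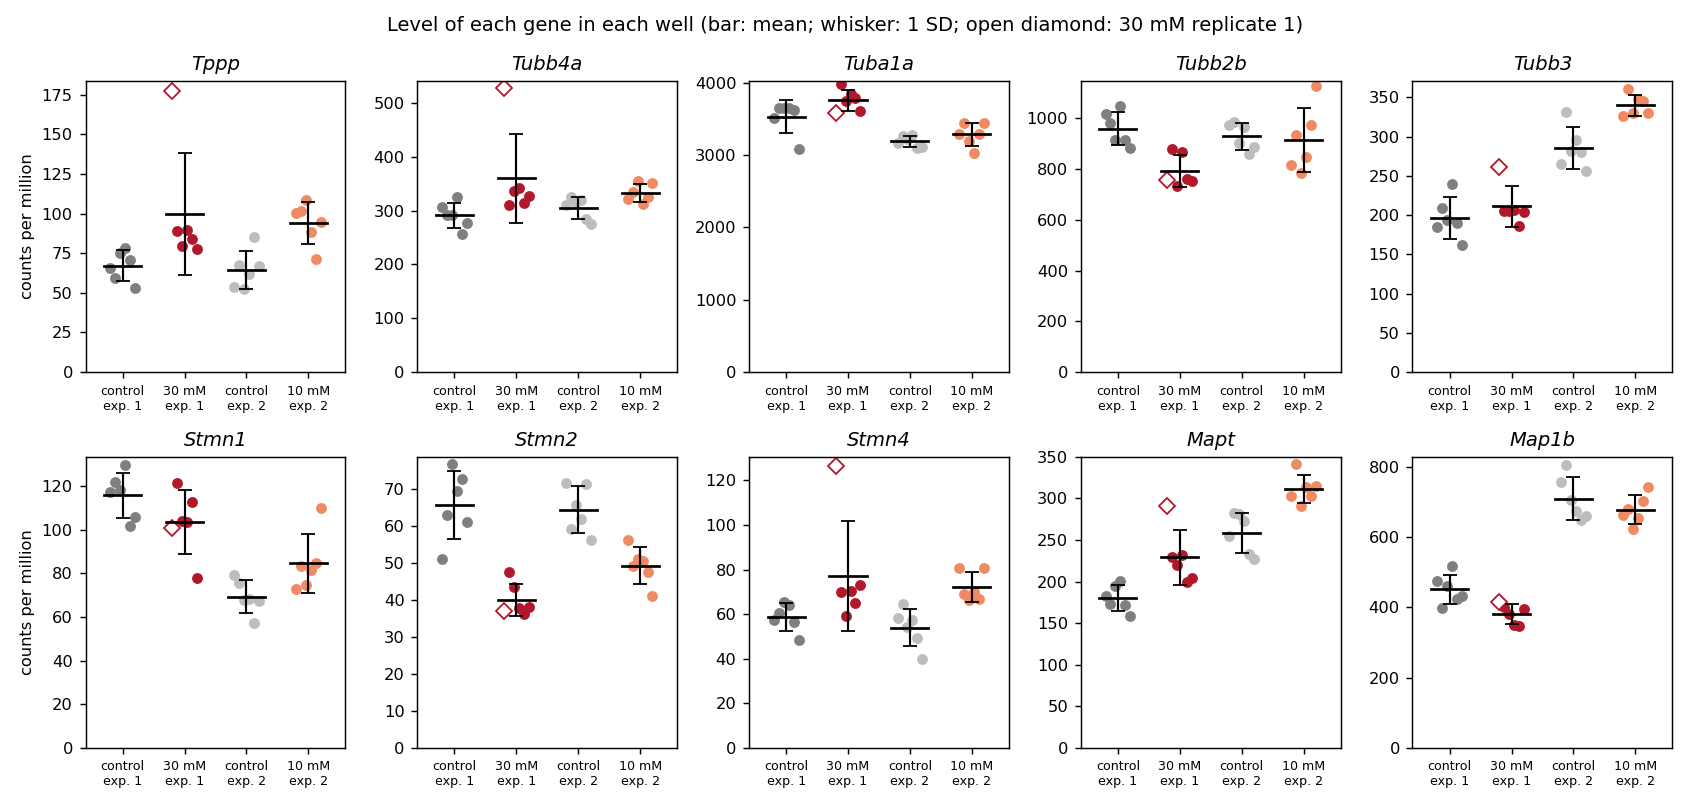
CPM of the 10 genes in each of the 24 wells, by group; each point is a well, the bar is the mean, the whisker 1 SD, and the open diamond replicate 1 at 30 mM. In Tppp, Tubb4a and Stmn4 that well stands above every other well, and the 6 wells at 30 mM lie below the 6 control wells in Stmn2 and Tubb2b.

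Tppp had 53.0 CPM in the lowest, 68.1 in the median and 78.5 in the highest control well of experiment 1, and 77.8, 86.4 and 177 CPM at 30 mM. In 5 of the 6 wells at 30 mM it exceeded every control well, and the sixth lay just inside the control range. In experiment 2 it had 52.3, 64.3 and 85.1 CPM in the control wells and 71.1, 97.4 and 109 CPM at 10 mM, where again 5 of 6 wells exceeded every control well. The log2 fold change was 0.59 ± 0.14 (SE) at 30 mM and 0.53 ± 0.10 at 10 mM. Both control groups had nearly the same level, with a log2 difference of 0.05 ± 0.10. Without replicate 1 the value at 30 mM was 0.32 ± 0.10 and kept its call, while DESeq2, at 0.58 with that well, did not call it. The 30 mM change minus the 10 mM change was 0.04 ± 0.18, and -0.24 ± 0.14 without replicate 1.

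Tubb4a, the beta tubulin of myelinating cells, had 257, 292 and 325 CPM in the lowest, median and highest control well of experiment 1 and 311, 332 and 527 CPM at 30 mM. Of the wells at 30 mM, 4 of 6 exceeded every control well. In experiment 2 the values were 274, 313 and 326 CPM in the control wells and 312, 330 and 354 CPM at 10 mM, and 3 of 6 wells at 10 mM exceeded every control well. The log2 fold change was 0.31 ± 0.09 at 30 mM and 0.12 ± 0.06 at 10 mM, the latter not past the threshold. Without replicate 1 the value at 30 mM was 0.17 ± 0.07 and no longer passed, and without control replicate 5 of experiment 1 it was 0.28 and no longer passed.

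Tubb3, the beta tubulin used as a neuronal marker, had 161, 192 and 240 CPM in the control wells of experiment 1 and 186, 205 and 262 CPM at 30 mM. The ranges overlapped, and 1 of 6 wells at 30 mM, replicate 1, exceeded every control well. In experiment 2 it had 256, 281 and 332 CPM in the control wells and 327, 338 and 361 CPM at 10 mM; 3 of 6 wells at 10 mM exceeded every control well. Its log2 fold change was 0.11 ± 0.08 at 30 mM, 0.04 ± 0.08 without replicate 1, and 0.24 ± 0.06 at 10 mM. The 10 mM call was lost without 10 mM replicates 2 (0.23) or 4 (0.24) and without control replicates 1 (0.22), 5 (0.24) or 6 (0.22). That call was also lost in the joint fit of 24 wells (0.25). All 6 control wells of experiment 1 lay below all 6 of experiment 2, with a log2 difference of -0.55 ± 0.07.

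Tubb2b, a beta tubulin prominent in developing neural tissue, had 882, 949 and 1048 CPM in the control wells of experiment 1 and 732, 758 and 877 CPM at 30 mM. Every well at 30 mM lay below every control well. In experiment 2 it had 859, 933 and 986 CPM in the control wells and 786, 891 and 1127 CPM at 10 mM, which overlapped widely. The log2 fold change was -0.27 ± 0.06 at 30 mM and -0.03 ± 0.06 at 10 mM. Leaving out any 1 of the 12 wells of experiment 1 kept the 30 mM call, with values from -0.30 to -0.25.

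Tuba1a was the most abundant of the 10, with 3090, 3639 and 3659 CPM in the control wells of experiment 1 and 3580, 3769 and 3978 CPM at 30 mM. In experiment 2 it had 3103, 3200 and 3282 CPM in the control wells and 3032, 3297 and 3447 CPM at 10 mM. The groups overlapped at both doses, and the log2 fold change was 0.10 ± 0.05 at 30 mM and 0.03 ± 0.05 at 10 mM. Its counts are uncertain: of the 401 words of 100 bases in the last 500 bases of its GENCODE M21 transcript, 50.9% also occur in transcripts of other genes, Tuba1b and Tuba1c among them. For Tppp, Tubb4a, Tubb2b, Tubb3, Stmn2, Stmn4, Mapt and Map1b no such word was shared, and for Stmn1 24.1% were shared with the gene named Gm11223. In the other direction, 21.2% of the words in the 3′ end of Tubb2a occur in Tubb2b.

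Stmn2, the stathmin used as a neuronal marker, had 51.1, 66.1 and 76.6 CPM in the control wells of experiment 1 and 36.2, 37.9 and 47.4 CPM at 30 mM. No well at 30 mM reached the lowest control well. Experiment 2 gave 56.1, 63.8 and 71.6 CPM in the control wells and 41.1, 49.8 and 56.2 CPM at 10 mM; 5 of 6 wells at 10 mM lay below every control well. Its log2 fold change was -0.71 ± 0.11 at 30 mM, -0.68 ± 0.12 without replicate 1, and -0.40 ± 0.10 at 10 mM. Leaving out any 1 well kept the 30 mM call, with values from -0.77 to -0.66. The 10 mM call was lost in DESeq2 (-0.40), with no filter on low counts (-0.38) and without any 1 of 10 mM replicates 2 (-0.40), 4 (-0.41), 5 (-0.39) and 6 (-0.35) or control replicates 1 (-0.36), 3 (-0.39) and 5 (-0.37). That call was also lost in the joint fit of 24 wells (-0.39). The 2 control groups were level, at a log2 difference of 0.01 ± 0.10.

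Stmn4, a stathmin of neural cells, had 48.3, 58.8 and 65.2 CPM in the control wells of experiment 1 and 58.9, 70.0 and 126 CPM at 30 mM. Of these 6 wells, 4 exceeded every control well. Experiment 2 gave 40.0, 55.8 and 64.4 CPM in the control wells and 66.5, 69.5 and 80.8 CPM at 10 mM, with every well at 10 mM above every control well. The log2 fold change was 0.42 ± 0.12 at 30 mM and 0.41 ± 0.10 at 10 mM. The 30 mM call was lost without replicate 1 at 30 mM (0.20 ± 0.10), without control replicates 1 (0.41), 5 (0.40) or 6 (0.38), in DESeq2 (0.41) and in limma voom (0.37). The 10 mM call was lost without control replicates 5 (0.39) or 6 (0.34) of experiment 2, in DESeq2 (0.41) and in the joint fit of 24 wells (0.42).

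Stmn1, the widely expressed stathmin, had 102, 118 and 130 CPM in the control wells of experiment 1 and 77.8, 104 and 122 CPM at 30 mM. It had 57.4, 68.0 and 79.4 CPM in the control wells of experiment 2 and 72.9, 82.5 and 110 CPM at 10 mM. Neither difference passed, at log2 fold changes of -0.16 ± 0.09 at 30 mM and 0.28 ± 0.09 at 10 mM. The control wells of experiment 1 all lay above those of experiment 2, by 0.72 ± 0.08 on the log2 scale. Stathmin 1 takes part in remodelling the mitotic spindle. Of 12 markers of cycling cells, 5 were higher (41.7%) and 0 lower in the control wells of experiment 1 than in those of experiment 2. Of all genes, 21.3% were called higher and 43.6% in either direction. The median log2 difference of the 12 markers was 0.16, with sums of 1008 to 1269 and 911 to 1030 CPM. The part of cycling cells in the Stmn1 difference was not tested.

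Mapt, which encodes tau, had 158, 178 and 201 CPM in the control wells of experiment 1 and 200, 224 and 291 CPM at 30 mM, with 5 of 6 wells above every control well. Levels in experiment 2 were 227, 264 and 282 CPM in the control wells and 291, 308 and 341 CPM at 10 mM, and every well at 10 mM exceeded every control well. Its log2 fold change was 0.36 ± 0.08 at 30 mM, 0.27 ± 0.07 without replicate 1, and 0.26 ± 0.06 at 10 mM. The 30 mM call held with any 1 well left out. The 10 mM call was lost without 10 mM replicates 2 (0.23) or 4 (0.25), without control replicates 5 (0.23) or 6 (0.23) and in the joint fit of 24 wells (0.27).

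Map1b, a microtubule-associated protein of growing processes, had 398, 447 and 516 CPM in the control wells of experiment 1 and 346, 388 and 416 CPM at 30 mM. Of these 6 wells, 4 lay below every control well. Levels in experiment 2 were 650, 690 and 806 CPM in the control wells and 622, 672 and 744 CPM at 10 mM. Its log2 fold change was -0.23 ± 0.06 at 30 mM and -0.08 ± 0.05 at 10 mM. The 30 mM call was lost without 30 mM replicates 4 (-0.21) or 5 (-0.20) and without control replicate 4 (-0.19).

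**Figure D2:**
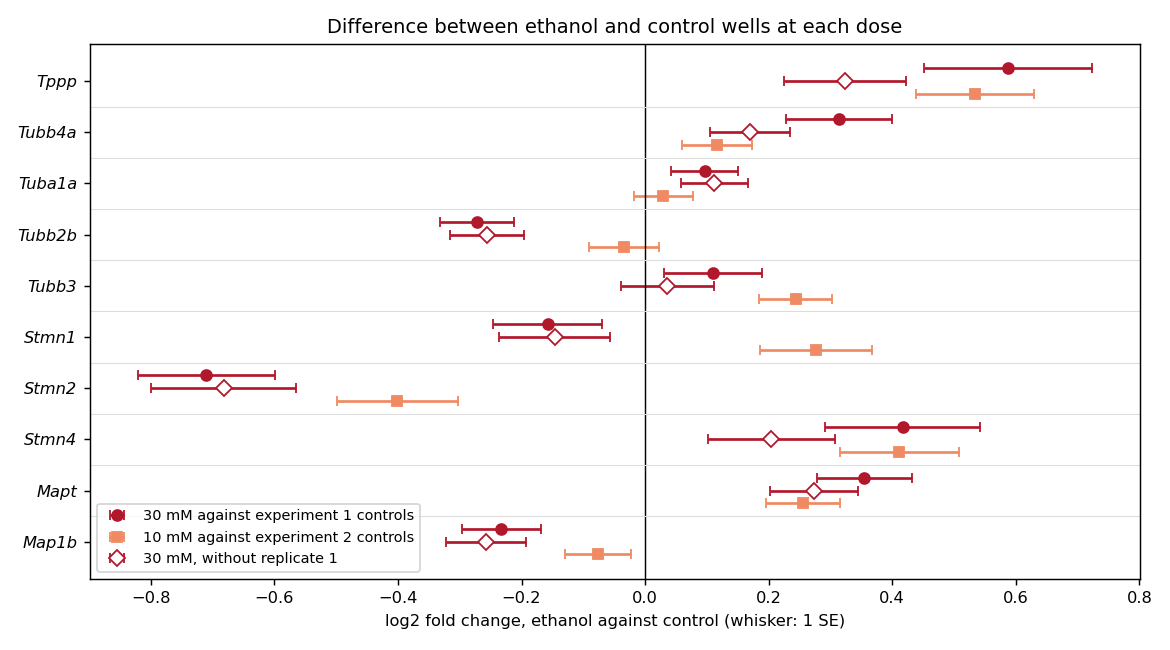
Log2 fold change of ethanol against control for the 10 genes, with 1 SE as whisker, at 30 mM (circles), at 30 mM without replicate 1 (open diamonds) and at 10 mM (squares). Stmn2 lies left of 0 and Tppp, Stmn4 and Mapt right of 0 in all 3 series, and the Tppp value at 30 mM moves from 0.59 to 0.32 without replicate 1.

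Tppp, Stmn4, Mapt and Stmn2 were called at both doses, each in the same direction. Tubb4a, Tubb2b and Map1b were called at 30 mM only and Tubb3 at 10 mM only, each with the same sign at both doses. Tuba1a and Stmn1 were called at neither dose, and only Stmn1 differed in sign. The 10 mM values of Tubb2b (-0.03 ± 0.06) and Tuba1a (0.03 ± 0.05) lay within 1 SE of 0. The change at 30 mM minus that at 10 mM passed the threshold for 1 of 10 members, Stmn1, in a table where 3.28% of 14655 genes did and 2.4% were called lower. It uses the same wells as the comparisons at each dose. For Stmn1 the difference of log2 changes was -0.45 ± 0.13. Stmn1 lost the call in DESeq2 (-0.46) and limma voom (-0.45), and when any 1 of 13 of the 24 wells was left out, with values from -0.52 to -0.36 over the 24. Those 13 were replicates 3, 4 and 6 at 30 mM, replicates 5 and 6 at 10 mM, control replicates 1 to 4 of experiment 1 and control replicates 3 to 6 of experiment 2. For Stmn2 the difference was -0.32 ± 0.15, for Tubb2b -0.25 ± 0.09, for Map1b -0.17 ± 0.09, for Tubb3 -0.15 ± 0.10 and for Tubb4a 0.19 ± 0.11, none past the threshold. Without replicate 1 at 30 mM the difference was 0.02 ± 0.09 for Tubb4a, -0.24 ± 0.10 for Tubb3 and -0.24 ± 0.14 for Stmn4, and none of these passed either. That of Tubb2b passed without 30 mM replicate 2 (-0.30) and without 10 mM replicate 3 (-0.31).

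Between the control wells, Stmn1 was 1.64-fold higher in experiment 1, and Tubb3, Mapt and Map1b were lower, at 0.681, 0.689 and 0.6248 of the level in experiment 2. For each of these 4 genes the 6 wells of experiment 1 did not overlap with the 6 of experiment 2. They are 4 of 10 past the threshold, 1 higher and 3 lower, in a table where 43.6% of 13479 genes were called, 21.3% higher and 22.3% lower, and where 18.9% did not overlap. With any 1 control well left out, 4 or 5 members passed. The remaining 6 differed by log2 values from -0.09 (Tubb4a) to 0.12 (Tuba1a), and Tuba1a passed when 1 of 5 control wells was left out (experiment 1 replicates 1 at 0.13 or 6 at 0.16, experiment 2 replicates 2, 3 or 4 at 0.13) and in each of the other 6 settings tried (0.12 to 0.17). This comparison shares its control wells with both ethanol comparisons. At 30 mM, 2 members, Tubb2b and Stmn2, did not overlap with their controls, beside 4.1% of all genes, and at 10 mM, Stmn4 and Mapt did not, beside 0.813%.

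By mean level over the 4 groups, Tubb3 was highest at 10 mM (340 ± 13.6 CPM, SD, n = 6). The experiment 2 controls followed (285 ± 26.8), then the wells at 30 mM (211 ± 25.9) and the experiment 1 controls (197 ± 26.4). Each neighbouring pair in that order overlapped. Between the experiment 2 controls (lowest 256 CPM) and the wells at 30 mM the overlap rested on 30 mM replicate 1 (262 CPM). The other wells at 30 mM reached at most 206 CPM. Mapt followed the same order of groups, at 311 ± 17.1, 258 ± 24.3, 229 ± 33.0 and 180 ± 15.9 CPM, and there the first pair did not overlap and the other neighbours did. Stmn2 was highest in both control groups, at 65.6 ± 9.20 and 64.3 ± 6.36 CPM in the 2 control groups, 49.3 ± 4.96 at 10 mM and 39.9 ± 4.45 at 30 mM. Tppp had 99.4 ± 38.5 CPM at 30 mM, 94.1 ± 13.2 at 10 mM, and 67.1 ± 9.68 and 64.5 ± 11.9 in the 2 control groups. Levels set across experiments carry the difference between experiments.

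The shares that the members take within their families put the beta tubulins on a common scale. Of all beta tubulin counts in a well, Tubb4a held 8.63% ± 0.45 (SD, n = 6) in the controls of experiment 1 and 12.0% ± 2.49 at 30 mM. The control wells spanned 7.81% to 9.12% and the wells at 30 mM 9.96% to 16.9%, so the groups did not overlap; without replicate 1 the highest share at 30 mM was 11.8%. At 10 mM Tubb4a held 9.71% ± 0.74, against 8.88% ± 0.30 in its controls. Tubb3 held 5.81% ± 0.47 in the controls of experiment 1 and 7.07% ± 0.75 at 30 mM, and in experiment 2 it held 8.31% ± 0.62 in control wells and 9.91% ± 0.69 at 10 mM, with overlap in both experiments. Tubb2b held 28.4% ± 0.89 and 26.5% ± 1.44 in experiment 1, and Tubb5, a widely expressed beta tubulin outside the list, 28.7% ± 0.58 and 25.8% ± 1.00. Counts of Tubb2a and Tubb4b, part of the family total, are less certain. Of their 3′ words, 21.2% and 13.5% were shared with other genes. A share also moves when other genes of the family move. In CPM, Tubb4a at 30 mM overlapped with its controls.

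Within the 4 stathmins, Stmn2 held 19.6% ± 2.27 of counts in the controls of experiment 1 and 12.8% ± 1.78 at 30 mM, and 22.4% ± 2.31 and 15.7% ± 2.27 in experiment 2. Stmn4 went the other way, from 17.5% ± 1.09 to 24.2% ± 5.05 and from 18.7% ± 1.98 to 22.9% ± 1.79. For both genes the shares of the ethanol and control wells did not overlap in either experiment. In CPM, Stmn4 at 30 mM and Stmn2 at 10 mM overlapped with their controls. A lower share of Stmn2 by itself raises the shares of the other stathmins. Stmn3, the fourth stathmin, held 28.4% ± 2.01 and 30.0% ± 2.20 in experiment 1 and 34.9% ± 3.28 and 34.8% ± 2.26 in experiment 2. Among alpha tubulins, Tuba1a held 83.9% ± 1.28 in the controls of experiment 1 and 87.8% ± 1.08 at 30 mM, and 83.5% ± 0.73 and 83.7% ± 1.23 in experiment 2.

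**Figure D3:**
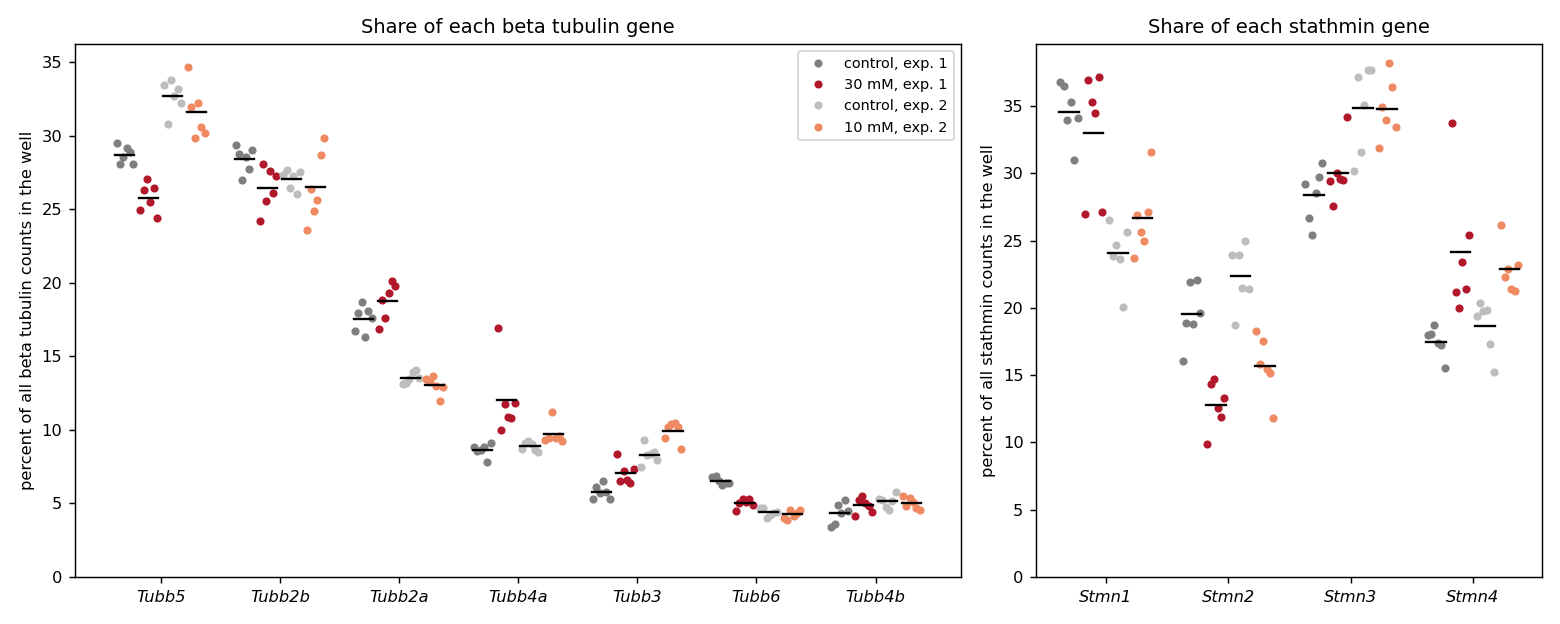
Percent of all beta tubulin counts (left) and of all stathmin counts (right) held by each gene in each of the 24 wells; each point is a well, coloured by group, and the bar is the group mean. At 30 mM the share of Tubb4a lies above its controls and that of Tubb5 below, and in both experiments Stmn2 loses and Stmn4 gains share in ethanol.

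Other genes of the microtubule system were taken from a list of 113, of which 95 were tested at 30 mM. There, 5 passed the threshold (5.26%, beside 9.67% of all genes), all lower: Tuba1c (-0.70 ± 0.09, adjusted p = 1.4e-07, edgeR), Tubb6 (-0.55 ± 0.07, adjusted p = 2.4e-07), Tubb5 (-0.32 ± 0.06, adjusted p = 0.00013), Tuba1b (-0.26 ± 0.07, adjusted p = 0.012) and Map7d2 (-0.41 ± 0.13, adjusted p = 0.034). The first 4 are tubulins, out of 10 other tubulins tested, and Map7d2 binds microtubules and kinesin. The median log2 fold change of the 95 genes was -5.8e-05, beside 0.02 over all genes. None of the 2 other TPPP and stathmin genes tested, 14 plus and minus end proteins, 4 tubulin folding cofactors, 8 genes of the gamma tubulin complex, 12 tubulin-modifying enzymes, 6 severing enzymes or 25 transport motors passed. Of the 95 genes, 18 had an unadjusted p under 0.05.

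Tuba1c had 143 to 206 CPM in the control wells of experiment 1 and 97.9 to 126 CPM at 30 mM, and Tubb6 had 194 to 236 and 136 to 160 CPM. Tubb5 had 852 to 1070 and 676 to 823 CPM, so in all 3 genes the groups did not overlap. In the whole list 4 of 95 genes did not overlap at 30 mM, beside 4.1% of all genes. Over the 12 wells left out in turn these 3 kept their calls, while Tuba1b lost it without 30 mM replicates 5 (-0.23) or 6 (-0.22) or control replicates 3 (-0.24) or 4 (-0.23). Map7d2 lost it without 30 mM replicates 4 (-0.35), 5 (-0.35) or 6 (-0.41) or control replicates 1 (-0.41), 3 (-0.39) or 6 (-0.39), and in DESeq2 (-0.41). The number of other genes called ranged from 3 to 8 in this way; it was 8 without 30 mM replicates 1 or 2 and 3 without 30 mM replicates 5 or 6 or control replicate 3. Of the words in the 3′ ends of Tuba1b and Tuba1c, 64.8% and 64.1% were shared with other genes, so their split from Tuba1a is uncertain.

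Markers of other cells were measured in the same wells. At 30 mM, 10 of 12 markers of cycling cells were lower (median log2 fold change -0.49), with summed levels of 1008 to 1269 CPM in the control wells and 761 to 961 CPM at 30 mM. Of 10 markers of mural cells and fibroblasts 8 were lower, with sums of 1080 to 1489 and 484 to 587 CPM, and of 9 astrocyte markers tested 5 were higher, with sums of 3969 to 4937 and 5443 to 6904 CPM. Without replicate 1 at 30 mM these counts were 10, 8 and 6. With all wells, 6.65% of all genes were called lower at 30 mM and 3.02% higher. The share of counts from mitochondrial genes was 2.94% to 3.82% in the control wells and 3.59% to 4.79% at 30 mM, where 4 of 6 wells lay above every control well; in experiment 2 it was 2.06% to 2.39% in the control wells and 1.82% to 2.37% at 10 mM. The part of the mitochondrial share in the changes of the 10 genes was not tested. The part of these cells in the lower Tubb2b, Tubb5, Tubb6, Tuba1b and Tuba1c was not tested either.

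At 10 mM, 0 of 97 other microtubule genes passed in edgeR, DESeq2 and limma voom alike, beside 0.657% of all genes; 13 had an unadjusted p under 0.05 in edgeR. Their median log2 fold change was 0.03. None of 12 cycling markers passed at 10 mM (median 0.04), with sums of 911 to 1030 CPM in the control wells and 933 to 1206 CPM in ethanol. Of all genes, 0.266% were called lower at 10 mM and 0.391% higher. Of 9 tested markers of mural cells and fibroblasts 2 were lower, all 9 values were below 0 (median -0.28), and the sums were 619 to 794 and 595 to 693 CPM. Of 8 tested markers of microglia 1 was higher (median 0.09), with sums of 2664 to 3267 and 2924 to 3537 CPM, and none of 9 astrocyte markers passed (median -0.0065). The part of these cells in the changes of the 10 genes at 10 mM was not tested. The change at 30 mM minus that at 10 mM passed for 3 of 97 genes, all lower: Tuba1c (-0.65 ± 0.12, adjusted p = 0.00020, edgeR), Tubb6 (-0.51 ± 0.10, adjusted p = 0.0012) and Tubb5 (-0.28 ± 0.08, adjusted p = 0.045). The call of Tubb5 was lost when any 1 of 12 of the 24 wells was left out, with values from -0.33 to -0.25: replicates 3, 5 and 6 at 30 mM, replicates 1, 2 and 6 at 10 mM, control replicates 1, 3 and 4 of experiment 1 and control replicates 2, 5 and 6 of experiment 2. It was also lost with no filter on low counts (-0.34). Without replicate 1 at 30 mM 5 genes passed.

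**Figure D4:**
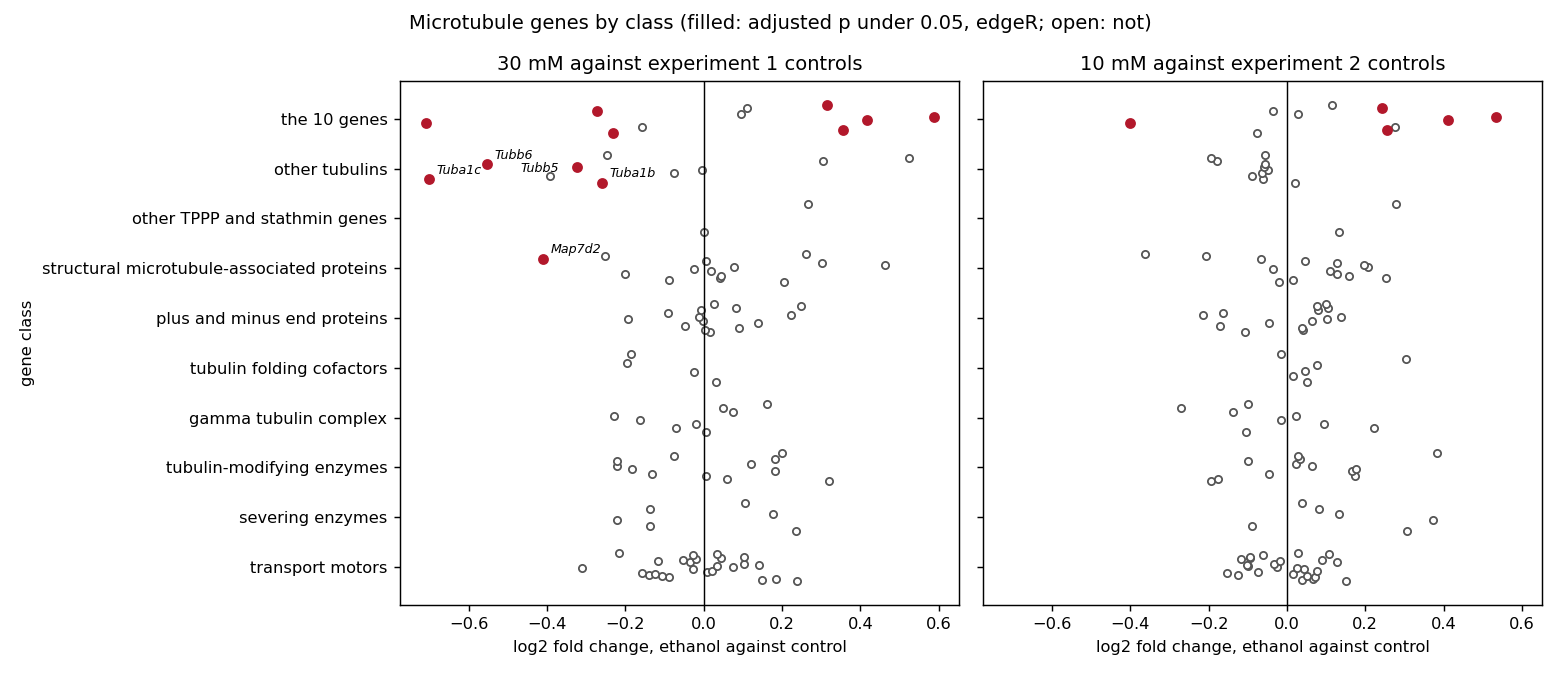
Log2 fold change of ethanol against control for the 10 genes and for the other microtubule genes by class, at 30 mM (left) and 10 mM (right); filled points passed an adjusted p of 0.05 in edgeR. Outside the 10 genes the filled points are Tuba1c, Tubb6, Tubb5, Tuba1b and Map7d2 at 30 mM, all left of 0.

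Between the control wells, 43 of 96 other microtubule genes passed (44.8%, beside 43.6% of all genes), 24 higher and 19 lower in experiment 1. The 6 with the smallest p were Map7d2 (-1.05 ± 0.10, adjusted p = 6.5e-16, edgeR), Map1a (-0.47 ± 0.06, adjusted p = 2.6e-10), Tubb6 (0.52 ± 0.07, adjusted p = 4.1e-10), the dynein light chain Dynll1 (0.39 ± 0.06, adjusted p = 5.3e-08), Tubb2a (0.33 ± 0.05, adjusted p = 7.1e-07) and Dclk1, a doublecortin-like kinase (-0.32 ± 0.06, adjusted p = 5.1e-06). Map1a, the close relative of Map1b, was thus lower in experiment 1 as Map1b was. Of all genes, 21.3% were called higher and 22.3% lower in experiment 1. All 8 tested markers of microglia were lower in experiment 1 (median log2 difference -3.35), with sums of 196 to 350 CPM in experiment 1 controls and 2664 to 3267 CPM in experiment 2 controls. Of 11 neuron markers tested 5 were lower, and of 8 markers of oligodendrocyte precursors 6 were lower, with sums of 711 to 785 and 816 to 894 CPM. Of 9 astrocyte markers tested 6 were higher and 2 lower, with sums of 3969 to 4937 and 4430 to 4752 CPM. Of 10 markers of mural cells and fibroblasts 4 were higher and 4 lower, with sums of 1080 to 1489 and 619 to 794 CPM. Their part in the differences between the control groups was not tested.

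The oligodendrocyte and neuronal entries of the list were set beside markers of those cells. Of 11 markers of mature oligodendrocytes tested, 7 were higher at 30 mM (median log2 fold change 0.42), beside 3.02% of all genes called higher. At 10 mM 3 of the 11 were higher (median 0.17), beside 0.391% of all genes. Without replicate 1 at 30 mM 7 were again higher, with a median of 0.23. Their summed level was 7521 to 9261 CPM in the control wells and 9686 to 16600 CPM at 30 mM, and 6931 to 8877 and 8418 to 9329 CPM in experiment 2. Mag, a myelin adhesion protein, was among those higher at both doses (0.59 ± 0.10, adjusted p = 2.6e-05 at 30 mM, and 0.36 ± 0.06, adjusted p = 8.5e-05 at 10 mM, edgeR), as were Mal and Cnp; without that well Mag was at 0.40 ± 0.06. The part of more mature oligodendrocytes in the higher Tppp, Tubb4a, Stmn4 and Mapt was not tested. Of 15 neuron markers 9 were tested at 30 mM, where Elavl3 was higher (0.37 ± 0.08, adjusted p = 0.0013) and Gap43, a growth cone protein, lower (-0.25 ± 0.08, adjusted p = 0.029); the median log2 fold change of the 9 was 0.25. At 10 mM 10 were tested and Elavl3 was higher (0.27 ± 0.06, adjusted p = 0.0039), while 7 of the 10 had values below 0 and the median was -0.16. Of all genes, 9.67% were called at 30 mM and 0.657% at 10 mM. The summed level of the 15 neuron markers was 667 to 807 CPM in the control wells and 686 to 868 CPM at 30 mM, and 858 to 945 and 902 to 968 CPM in experiment 2.

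Most of that sum came from Elavl3 and Gap43; the other 13 markers, a subset chosen after their values were seen, summed to 156 to 172 CPM in the control wells and 147 to 198 CPM at 30 mM, and to 205 to 259 and 196 to 218 CPM in experiment 2. Levels within the list differed widely: over the 24 wells Elavl3 had 248 to 460 CPM and Gap43 227 to 370 CPM, the nuclear protein gene Rbfox3 had 23.03 to 64.7 CPM and the intermediate filament gene Ina 26.1 to 60.1 CPM. The synaptic gene Snap25 had 12.5 to 25.1 CPM, and the vesicular glutamate transporters Slc17a6 and Slc17a7 reached at most 4.91 and 4.03 CPM and had 0 counts in some wells. Of the 7 markers of newborn interneurons 5 were tested, and Igfbpl1 was lower at 30 mM (-0.53 ± 0.10, adjusted p = 0.00046, edgeR), with sums over the 7 of 146 to 168 CPM in the control wells and 105 to 144 CPM at 30 mM. At 10 mM none of the 5 passed. No marker of either list was at 0 in every well of a group. The part of neurons or newborn interneurons in the lower Stmn2 was not tested.

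How the members varied between wells of the same group was described by correlations of log2 CPM after the group means were taken out, over 24 wells; the genes compared share the library, depth and scaling of each well. Tubb4a and Stmn4 had r = 0.82, Tubb3 and Mapt 0.80, Stmn4 and Mapt 0.80, Tubb4a and Mapt 0.79, and Tubb2b and Stmn1 0.76. Without replicate 1 at 30 mM, chosen for leaving out after it was seen to stand apart, these were 0.61, 0.73, 0.67, 0.67 and 0.76. Tppp fell from 0.64 to 0.21 with Tubb4a and from 0.61 to 0.26 with Stmn4 without that well. Stmn2 had values from -0.33 (Tubb2b) to 0.18 (Tuba1a) with the other 9 members.

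**Figure D5:**
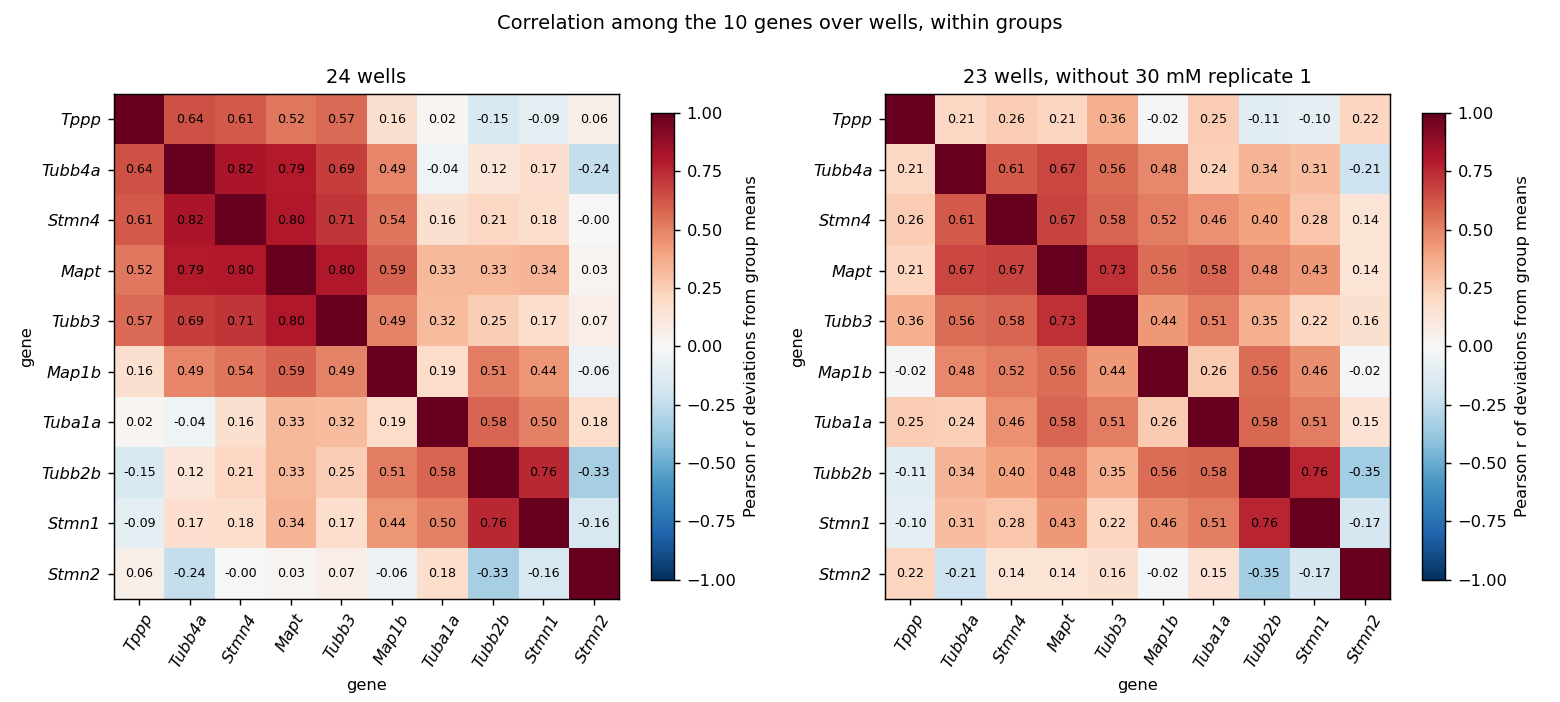
Pearson r of deviations from group means between each pair of the 10 genes over 24 wells (left) and over 23 wells without replicate 1 at 30 mM (right); red is positive and blue negative. Tubb4a, Stmn4, Mapt and Tubb3 form a block of positive values that remains between 0.56 and 0.73 on the right, and the row of Stmn2 lies between -0.35 and 0.22 there.

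Set against summed markers in the same way, Tubb4a had r = 0.87 with mature oligodendrocyte markers over 24 wells and 0.66 over 23, Tppp 0.81 and 0.59, Stmn4 0.82 and 0.60, and Mapt 0.76 and 0.60. Tubb3, entered as a neuronal gene, had 0.77 and 0.71. With the 15 neuron markers Tubb4a had 0.71 over 24 wells and 0.52 over 23, Map1b 0.71 and 0.71, Tubb3 0.68 and 0.56, Stmn4 0.67 and 0.46, Mapt 0.59 and 0.39, and Tppp 0.58 and 0.32. With the 13 left without Elavl3 and Gap43, Stmn1 had -0.54 over 24 wells, Tuba1a -0.52, Mapt -0.43 and Tubb2b -0.40. Over the same wells Tubb3 had -0.26 with these 13, Stmn4 -0.24, Map1b -0.19, Tubb4a -0.05 and Tppp 0.02. Stmn2 had -0.05 with the oligodendrocyte markers, 0.004 with the 15 neuron markers and -0.01 with the 13. Tuba1a, Tubb2b and Stmn1 had 0.63, 0.59 and 0.54 with the cycling markers, 0.76, 0.53 and 0.54 with the astrocyte markers and 0.63, 0.33 and 0.61 with the microglia markers.

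Among 6400 genes with a mean log2 CPM of at least 5, those most like each of 4 members over the 24 wells were named by the same deviations. Nearest to Tppp were Pdlim2 (r = 0.85, rho = 0.76), Fbxo7 (0.83, 0.79) and Ywhaq (0.83, 0.68). Nearest to Tubb4a were Elavl3 (0.90, 0.75), the myelin gene Mobp (0.89, 0.71) and Pllp, which encodes plasmolipin (0.88, 0.78). Nearest to Tubb3 were Oaf (0.79, 0.54) and the myelin genes Mag (0.78, 0.54) and Cnp (0.78, 0.62). Nearest to Stmn2 were Gtf2a1 (0.80, 0.79), P4ha3 (0.75, 0.72) and Snrnp70 (0.71, 0.67). Over the 23 wells without replicate 1 at 30 mM the r values for these genes were 0.69, 0.76 and 0.67 for Tppp, 0.72, 0.68 and 0.67 for Tubb4a, 0.79, 0.71 and 0.70 for Tubb3, and 0.80, 0.75 and 0.71 for Stmn2. Over those 23 wells Rab7 (r = 0.80) was nearest to Tppp and Sirt2 (0.77) to Tubb4a. Oaf and Gtf2a1 stayed nearest to Tubb3 and Stmn2. For Tubb4a, Pacs2 (0.73) and Elavl3 (0.72) followed Sirt2, and Mobp and Pllp were no longer among the 3 nearest. For Tubb3, Dynll2 (0.73) and Atp6v1e1 (0.72) followed Oaf, and Mag and Cnp were no longer among the 3 nearest.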

How the data were processed

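RNA from 24 wells had been sequenced with a 3′ tag protocol, single-end, per the labels' protocols. The values used were the deposited raw counts per gene, which the submitters' processing notes tie to cutadapt 1.18, STAR and GRCm39; the counter, the annotation, the use of strand and any removal of PCR duplicates are not given in the sources used here, so reads of overlapping antisense genes cannot be told apart. Of 55359 rows, 52083 matched a symbol by Ensembl ID. Groups follow the labels. Each comparison was fitted on its own wells with edgeR 4.0.16 (quasi-likelihood test, TMM, filterByExpr with a minimum count of 10) in R 4.3.3, with Benjamini-Hochberg adjustment over all genes tested and a threshold of 0.05. The change at 30 mM minus that at 10 mM was an interaction term over 24 wells. DESeq2 1.42.0, limma 3.58.1 (voom), RLE scaling, no low-count filter, a joint fit, a replicate block and leaving out each well were alternatives. Log2 CPM used a prior count of 2. The fitting was tested on simulated data. The members and lists were chosen with earlier results of these data known. Other microtubule genes are named if past the threshold, by smallest p, up to 12 at each dose and up to 6 for the other comparisons, and likeness genes as the 3 highest r; markers are named to describe their lists.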

Additional observations from a re-analysis of the deposited data

Results flagged for a closer look

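In 7 of the 40 sets of 6 wells (10 genes in 4 groups) 1 well lay far from the nearest other well relative to the range of its group, where chance gives about 2. Of these, 5 are the same well, replicate 1 at 30 mM: it had 177 CPM of Tppp, 527 CPM of Tubb4a, 262 CPM of Tubb3, 126 CPM of Stmn4 and 291 CPM of Mapt, each the highest of its group. The other 2 were the Tuba1a level of 3090 CPM in control replicate 6 of experiment 1, the lowest of its group, and the Stmn1 level of 110 CPM in replicate 6 at 10 mM, the highest of its group.

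The ethanol change of Stmn1 differed between the experiments by -0.45 on the log2 scale (30 mM minus 10 mM, interaction term past the threshold). Neither change passed on its own (-0.16 at 30 mM and 0.28 at 10 mM), and the wells overlapped with their controls in both experiments. The call was lost in DESeq2 and limma voom and when any 1 of 13 of the 24 wells was left out.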

How the results depend on the processing

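Of 1115 fold changes recomputed for the named genes, 997 kept direction and side of the threshold, 76 lost the call, 13 gained it and 29 changed sign. Those that changed sign were Tppp between doses (-0.0104 with no low-count filter, -0.0207 with limma voom, -0.24 to 0.10 with 1 well left out), Tuba1a between doses (-0.0028 with no filter), Stmn4 (-0.24 to 0.0618) and Mapt (-0.0158 to 0.12) between doses with 1 well left out, Tubb2b at 10 mM (-0.0976 to 0.0055), and, between control groups, Tppp (-0.0042 to 0.15) and Stmn2 (-0.0343 to 0.0760, -0.0011 with limma voom, -0.0021 with the replicate block). The cause was not tested. The number of members called at 10 mM was 3 with DESeq2, 1 with the joint fit and 1 to 5 with 1 well left out; for the difference between doses it was 0 with DESeq2, 0 with limma voom and 0 to 2 with 1 well left out. At 30 mM it was 5 to 7 over all alternatives, and between control groups 4 or 5. Of the other microtubule genes, 3 to 8 were called at 30 mM and 2 to 5 for the difference between doses with 1 well left out, and 34 to 44 between control groups over all alternatives. The joint fit is the interaction's own fit, so it gives no alternative there.

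Replicate numbers did not pair the wells: deviations of same-numbered wells correlated at -0.168 to 0.233 in experiment 1 and -0.0382 to 0.0360 in experiment 2 over 14655 genes, and 1 of 6 wells in each correlated best with its own number. With the replicate block, 7, 5, 5 and 1 members and 6, 0, 44 and 3 other microtubule genes were called at 30 mM, at 10 mM, between controls and between doses. Depth limits the lower members most: 44 counts of Stmn2 in the lowest well.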
